A study of Mus musculus with 18 samples.

Results

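Layer 6 neurons of Tbr1 null mice were compared with layer 6 neurons of wild-type (WT) mice by RNA sequencing, over all genes. The members are the 8 layer 6 RNA samples of the 18 samples in the series, 4 labelled Tbr1 null and 4 labelled WT, and the 14588 genes of 24015 in the count table that had enough reads to be tested. Both groups were cortical neurons of mice at postnatal day 5 (P5), sorted by flow cytometry for the red fluorescent protein tdTomato, with about 25000 cells per sample, and both were sequenced in batch A. The null group carries the genotype "Tbr1 Layer 6 Null" in the sample labels, while the design text of the series calls the null constitutive. The labels give no treatment and do not name the strain of these mice, the driver of tdTomato, the deleted part of Tbr1, or whether a library is 1 animal, a pool or 1 of several libraries of an animal. The p-values therefore measure only the spread between these libraries, which may be technical. The series title asks how Tbr1 dosage in the newborn cortex affects the connections of layer 6.

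TBR1 is a T-box transcription factor of early-born, deep-layer glutamatergic neurons of the cerebral cortex. Most layer 6 projection neurons are corticothalamic: their axons leave the cortex for the thalamus, and TBR1 is known to hold this identity against that of layer 5 neurons that project below the cortex. Layer 6 borders the subplate on its deep side, and in the first postnatal week its neurons are extending axon branches, forming dendrites and making their first synapses. Genes for secreted signals, guidance receptors, adhesion molecules, ion channels and receptors are the parts with which such wiring is built, and they are taken here family by family.

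The targeted gene was read first. Tbr1 stood at 169.8, 172, 182 and 183 CPM (the usual read count of a gene scaled to a fixed library total, here with TMM, a trimmed-mean factor per library) in WT libraries 1, 2, 3 and 4, and at 92.05, 97.95, 94.97 and 96.1 CPM in null libraries 1, 2, 3 and 4. All null libraries lay below all WT libraries, and the log2 fold change, null minus WT, was -0.89 ± 0.035 (± gives the standard error throughout), with an adjusted p of 8.53e-09 in edgeR's quasi-likelihood test with Benjamini-Hochberg adjustment. The sources used here do not say whether these reads fall in the deleted part, so the labels are checked only in part. Tbr1 marks the neurons of interest, and it is 1 of 20 genes listed as markers of cortical glutamatergic neurons. All 20 were detected in both groups, with a summed level of 8287 to 8786 CPM in WT and 8052 to 8246 CPM in null libraries. The list also holds general neuronal genes, and Tubb3 (mean 3328 CPM in WT, 3197 in null) and Map2 (1649 and 1630) gave most of that sum. The sum therefore shows neurons in general. At an adjusted p under 0.05, 4 of the 20 were higher in null and 6 lower, Tbr1 among the 6. That is 50% called, against 14.2% of all genes tested.

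Libraries held 32982957 to 54899002 counts in WT and 41091165 to 47540669 in null. Libraries 1 and 2, and libraries 3 and 4, of each group were closest to each other: chi-square per degree of freedom was 3.26 to 5.18 within these pairs and 10.9 to 19.9 across them in WT, and 9.003 to 10.8 against 23.1 to 61.8 in null. WT libraries 1 and 2 also stood apart in sex-linked genes, with Xist at 0.460 and 0.450 CPM and 4 Y-linked genes together at 189.5 and 195.0 CPM, while the other 6 libraries had 264 to 301 CPM of Xist and at most 0.263 CPM of the Y-linked genes. Reads of the ribosomal RNA gene Rn45s made up 0.378% to 0.722% of counts in WT and 0.593% to 2.71% in null, highest in null libraries 3 and 4. The comparison was therefore also run with each pair summed to 1 sample, 2 against 2, and with only 1 pair of a group kept.

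With 8 libraries, 2068 genes (14.2% of those tested) were called at an adjusted p under 0.05, 1067 higher in null (7.31%) and 1001 lower (6.86%). Scaling by total counts alone, without TMM, shifted the median gene by -0.022 on the log2 scale and changed the split from 51.6% to 41.2% higher, with 866 higher and 1238 lower. With pairs summed the test called 479 genes, of which 478 were called in the same direction with 8 libraries (3.28% of those tested): 249 were higher in null (1.71%) and 229 lower (1.57%). These 478 genes are said below to be called in both fits, and "rose" and "fell" for a named gene mean this, with adjusted p of at most 0.00417 with 8 libraries and at most 0.0497 with pairs summed. Their median absolute log2 fold change was 0.59, against 0.087 over all genes tested, and 50 rose and 59 fell by more than 2-fold. The null and WT ranges did not overlap for any of the 478, as their choice all but ensures, and for 19.9% of all genes tested. All 478 were also called with only WT libraries 3 and 4, only WT 1 and 2, only null 1 and 2, or only null 3 and 4. These subsets reuse the libraries by which the 478 were chosen, so this is no independent check. In bulk libraries of this kind, fewer cells of a type and less RNA per cell cannot be told apart.

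**Figure D1:**
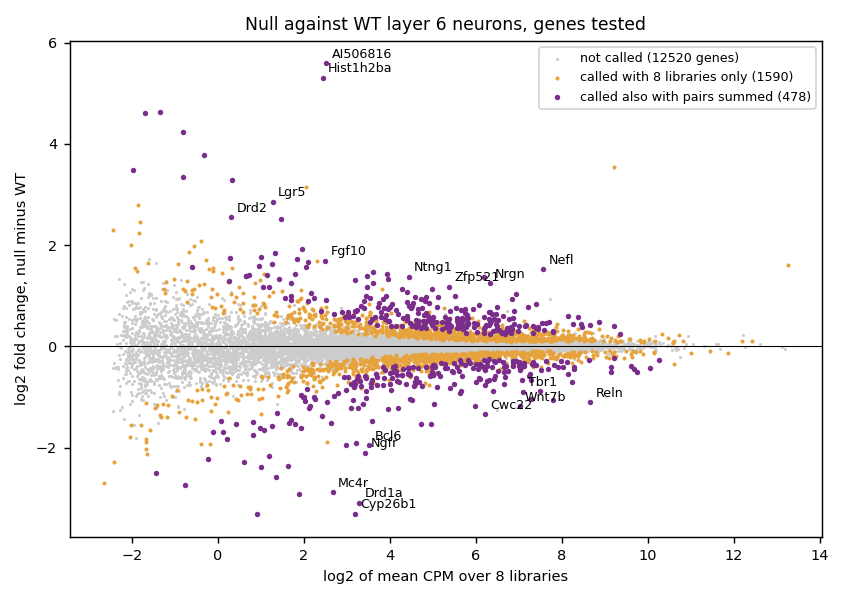
Mean expression (x axis, log2 of the mean CPM over 8 libraries) against the log2 fold change, null minus WT (y axis), for each of the 14588 genes tested. Purple points are the 478 genes called with 8 libraries and with pairs summed, orange points the other called genes and grey points the rest; the 478 lie on both sides of 0.

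The largest falls included an enzyme that breaks down a morphogen, receptors and transcription factors. Cyp26b1, a cytochrome P450 that degrades retinoic acid, stood at 19.6, 18.7, 14.2 and 13.9 CPM in WT libraries and 1.14, 1.42, 1.67 and 2.53 CPM in null libraries 1 to 4. It was 9.88-fold lower in null, and its lowest WT library was above its highest null library by several times. Dmrt2, a DM-domain transcription factor, stood at 3.39, 4.26, 3.03 and 3.07 CPM in WT and 0.359, 0.288, 0.245 and 0.477 CPM in null, a log2 fold change of -3.31 ± 0.23. Msx3, a homeobox factor, fell by 2.59 on the log2 scale. Bcl6, a zinc finger repressor, stood at 17.5, 16.4, 19.4 and 20 CPM in WT and 5.197, 4.71, 4.02 and 5.01 CPM in null, with each group within a narrow band. Nfe2l3, a bZIP factor of the NFE2 family, stood at 38.02, 39.2, 38.9 and 41.8 CPM in WT and 14.3, 15.6, 12.4 and 12.1 CPM in null, a log2 fold change of -1.54 ± 0.075. Cd274, which encodes the immune checkpoint ligand PD-L1, was 5.21-fold lower in null.

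Among genes with at least 1 CPM in null, the largest rises were in genes near the floor of detection in WT. AI506816, a transcript with a clone-type name, stood at 0.293, 0.2101, 0.263 and 0.164 CPM in WT and 11.4, 12.01, 10.5 and 11.2 CPM in null. Hist1h2ba, a testis-type histone gene, showed the same step, with 0.272, 0.2101, 0.241 and 0.309 CPM in WT and 11.2, 9.45, 10.4 and 11.1 CPM in null. Both were low in 4 of 4 WT libraries and at a near constant level in the 4 null libraries. Chrnb4, a nicotinic acetylcholine receptor subunit, rose from 0.0209, 0.0901, 0.02195 and 0.0909 CPM to 1.08, 0.819, 1.54 and 0.883 CPM. Prlr, the prolactin receptor, stood at 0.126, 0.0901, 0.1098 and 0.0727 CPM in WT and 0.592, 0.531, 1.42 and 1.62 CPM in null, so that null libraries 3 and 4 were well above null libraries 1 and 2. Its log2 fold change was 2.47 with null libraries 1 and 2 only and 3.90 with null libraries 3 and 4 only. Cdh23, a cadherin of hair-cell tip links, split in the same way, with 3.42, 2.699, 6.17 and 6.68 CPM in null against 1.07, 0.721, 0.7902 and 0.691 CPM in WT and a log2 fold change of 1.9 with null libraries 1 and 2 only. Lgr5, a leucine-rich G protein-coupled receptor for R-spondins, stood at 5.03, 4.62, 4.12 and 3.29 CPM in null and 0.418, 0.5704, 0.615 and 0.727 CPM in WT.

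**Figure D2:**
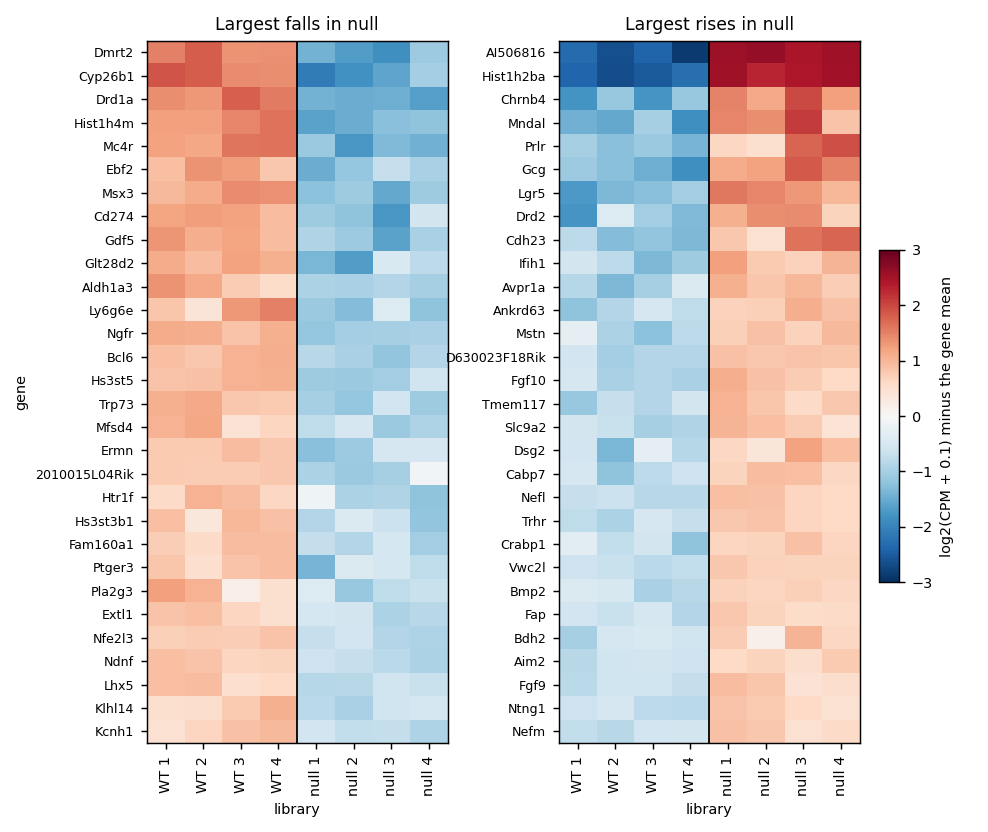
Colour shows log2(CPM + 0.1) minus the gene's mean over the 8 libraries (columns) for the 30 largest falls (left) and 30 largest rises (right) among genes called in both fits with at least 1 CPM in the higher group (rows). WT and null columns differ in every row, and Prlr and Cdh23 are darker in null libraries 3 and 4 than in 1 and 2.

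TBR1 binds DNA through a T-box domain, whose core site is written AGGTGTGA. That string was read on both strands (its reverse complement is TCACACCT, and the string overlaps no other motif searched) in RefSeq promoter sequences of the build GRCm38.p6, from 250 bases before to 50 bases after the gene start. A promoter was matched by symbol or synonym for 11486 of the genes tested, and 117 of them (1.02%) held the string, against 1 of 190 genes that rose (0.526%) and 3 of 174 that fell (1.72%). Shown are 3 genes called in both fits with a match wholly before the start, and Samd3 and Fam84a were picked after their values were seen. Not every gene counted above that rose or fell is shown, so the 3 are examples and not a complete set. The 250 bases before the start are printed on the gene's strand, with the match in capitals. Samd3 lies on the plus strand and its match begins 15 bases before the start, Fam84a on the minus strand with its match 217 bases before, and Prlr on the plus strand with its match 34 bases before.
Samd3, chr10:26229457-26229706: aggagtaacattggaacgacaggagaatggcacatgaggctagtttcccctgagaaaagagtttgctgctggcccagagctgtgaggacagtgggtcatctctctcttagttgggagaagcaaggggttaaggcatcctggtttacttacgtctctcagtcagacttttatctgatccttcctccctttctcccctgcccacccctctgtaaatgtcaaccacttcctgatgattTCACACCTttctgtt
Fam84a, chr12:14152039-14152288: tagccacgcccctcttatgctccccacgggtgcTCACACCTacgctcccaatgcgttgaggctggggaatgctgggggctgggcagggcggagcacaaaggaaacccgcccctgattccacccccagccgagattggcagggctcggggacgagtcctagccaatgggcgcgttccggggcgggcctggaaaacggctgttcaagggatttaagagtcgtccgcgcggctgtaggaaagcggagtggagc
Prlr, chr15:10176988-10177237: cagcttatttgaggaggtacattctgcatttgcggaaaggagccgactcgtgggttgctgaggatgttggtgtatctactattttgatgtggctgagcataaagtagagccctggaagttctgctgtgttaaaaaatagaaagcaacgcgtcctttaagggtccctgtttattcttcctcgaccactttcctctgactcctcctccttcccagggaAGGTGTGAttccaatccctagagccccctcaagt
Samd3, which encodes a sterile alpha motif protein, stood at 0.774, 0.721, 0.439 and 0.6001 CPM in WT and 0.106, 0.0885, 0.09799 and 0.143 CPM in null. Fam84a stood at 118, 121, 131 and 136 CPM in WT and 78.7, 75.7, 76.97 and 71.2 CPM in null, a log2 fold change of -0.74 ± 0.048. The match is a description of these letters in this window, and the values of Prlr are those given above.

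Secreted signals moved in both directions. Of 11 FGF ligands tested, 3 rose, all in both fits, and the other 8 were not called (list median 0.19, against 0.00034 over all genes tested). Fgf9 stood at 5.61, 6.51, 6.497 and 6.001 CPM in WT and 18.8, 17.6, 13.4 and 14.3 CPM in null, and Fgf10 at 3.33, 2.37, 2.57 and 2.38 CPM in WT and 10.2, 8.85, 8.18 and 7.28 CPM in null. For both, every null library was more than 2-fold above every WT library. Fgf18 rose by a log2 fold change of 0.95 ± 0.14. Among 36 ligands and antagonists of the TGF-beta and BMP families, 6 were higher and 6 lower with 8 libraries. That is 33.3% called, against 14.2% of all genes. In both fits 5 were higher and 3 lower (median -0.09), and under total-count scaling 6 and 8. The antagonists Fst, follistatin, which binds activins, and Grem1, gremlin, which binds BMPs, both rose: Fst from 12.9, 11.9, 11.5 and 12.5 CPM to 25.7, 26.2, 29.5 and 26.2 CPM, and Grem1 from 4.88, 5.28, 5.38 and 5.55 CPM to 12.3, 10.9, 14.6 and 14.5 CPM. The ligand Bmp2 rose by 1.41 ± 0.16, and so did Mstn, myostatin, outside the list, by 1.74 ± 0.24. The ligands Gdf10 and Gdf5 fell, Gdf10 from 17.6, 18.4, 16.6 and 17.6 CPM to 6.401, 5.73, 6.54 and 6.49 CPM and Gdf5 from 5.901, 4.95, 5.31 and 4.46 CPM to 1.18, 1.02, 0.686 and 1.12 CPM. The third faller of the list, named after its values were seen, was Bmp3, at -1.05 ± 0.093. For all of these the groups stood apart in all 8 libraries, as their choice all but ensures. Of 13 receptors of these families, 2 were higher and 3 lower by edgeR with 8 libraries (38.5% called). None was called in both fits (7 had an unadjusted p under 0.05).

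WNT7B is a ligand made by deep-layer neurons. Wnt7b stood at 172, 170.2, 191 and 186 CPM in WT and 86.98, 86.7, 72.8 and 70.4 CPM in null, a log2 fold change of -1.18 ± 0.069 (adjusted p 1.51e-07, edgeR). It was the 1 of 39 WNT ligands, frizzled receptors, R-spondins and modulators that was called lower, while 5 were called higher (15.4% called in all, close to the 14.2% of all genes), of which Fzd1, a frizzled receptor, was called in both fits at 0.32 ± 0.041. Of 32 ligands of the neurotrophin, GDNF, IGF, EGF, VEGF and PDGF families and their binding proteins, 6 were lower and 1 higher (21.9% called). Igf1 (-0.60 ± 0.093) and Igfbp5 (-0.58 ± 0.063), an IGF and a protein that binds IGFs, fell in both fits. Of 24 neuropeptide precursors, 7 were lower and 4 higher (45.8% called). Cck, cholecystokinin, and Grp, gastrin-releasing peptide, fell in both fits by 0.71 and 0.73 on the log2 scale. Cxcl12, a chemokine that guides migrating interneurons and Cajal-Retzius cells, stood at 57.5, 60.8, 53.3 and 53.7 CPM in WT and 30.2, 31.3, 36.6 and 36.3 CPM in null.

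Retinoic acid is made by aldehyde dehydrogenases, carried in the cell by CRABP proteins and degraded by CYP26 enzymes. Of 29 genes of this pathway, 5 were lower (17.2%, against 6.86% of all genes) and 1 higher (3.45%, against 7.31%; median -0.17), and 3 were called in both fits. Beside Cyp26b1, the synthetic enzyme gene Aldh1a3 fell, from 1.84, 1.59, 1.21 and 1.02 CPM in WT to 0.296, 0.288, 0.319 and 0.286 CPM in null. Crabp1, which encodes a binding protein, rose, from 2.41, 1.77, 2.04 and 1.25 CPM to 4.78, 4.89, 5.66 and 4.82 CPM. Thus 1 gene of synthesis, Aldh1a3, and 1 of breakdown, Cyp26b1, fell in the same libraries. The receptor genes Rara, Rarb and Rarg were among the 23 of 29 not called.

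Receptors for dopamine, serotonin and peptides were among the strongest changes. Of 29 aminergic and muscarinic receptors 5 were higher and 6 lower (37.9% called, against 14.2% of all genes), and 2 and 2 in both fits. Drd1a, the D1-type dopamine receptor gene, stood at 16.1, 15.01, 21.2 and 17.8 CPM in WT and 2.18, 2.101, 2.11 and 1.84 CPM in null. Drd2, the D2-type receptor gene, went the other way, from 0.188, 0.6304, 0.373 and 0.291 CPM in WT to 1.94, 2.48, 2.52 and 1.46 CPM in null. The gap between groups was many times the spread within them for Drd1a and narrower for the low-count Drd2. The serotonin receptor genes Htr1f and Htr4 also moved apart, Htr1f at a log2 fold change of -1.69 ± 0.28 and Htr4 at 1.34 ± 0.16. Of 45 peptide receptors 8 were higher and 4 lower (26.7% called), and 5 and 1 in both fits. Mc4r, a melanocortin receptor known for the control of feeding, stood at 9.67, 9.31, 12.8 and 13.04 CPM in WT and 1.86, 1.15, 1.59 and 1.46 CPM in null. Trhr, the thyrotropin-releasing hormone receptor, stood at 6.28, 5.52, 7.46 and 6.55 CPM in WT and 18.9, 19.3, 16.9 and 16.1 CPM in null. Avpr1a, a vasopressin receptor, rose by 1.84 ± 0.19 and Npr3, the clearance receptor for natriuretic peptides, by 0.53 ± 0.065. Outside this list Thrb, a nuclear receptor for thyroid hormone, rose from 8.81, 6.88, 6.94 and 6.42 CPM to 18.99, 19.4, 15.8 and 14.98 CPM.

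Co-receptors for growth factors split in the same manner. Ngfr, the p75 neurotrophin receptor, stood at 18.2, 18.1, 15.4 and 17.8 CPM in WT and 3.68, 4.09, 4.19 and 4.25 CPM in null. Gfra1, the GDNF co-receptor, stood at 19.6, 18.6, 17.5 and 16.8 CPM in WT and 31.6, 34.2, 35.9 and 37.6 CPM in null. These 2 were the members called in both fits among 40 TNF, cytokine and GDNF co-receptors. Of the 40, 5 were higher and 3 lower (20% called, against 14.2% of all genes), or 4 and 4 under total-count scaling. Among lipid, purine and metabotropic amino acid receptors, Grm7 (0.61 ± 0.042) and Grm4 (0.90 ± 0.12), glutamate receptors that lower transmitter release, rose, and Ptger3, a prostaglandin receptor, fell by 1.62 on the log2 scale.

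**Figure D3:**
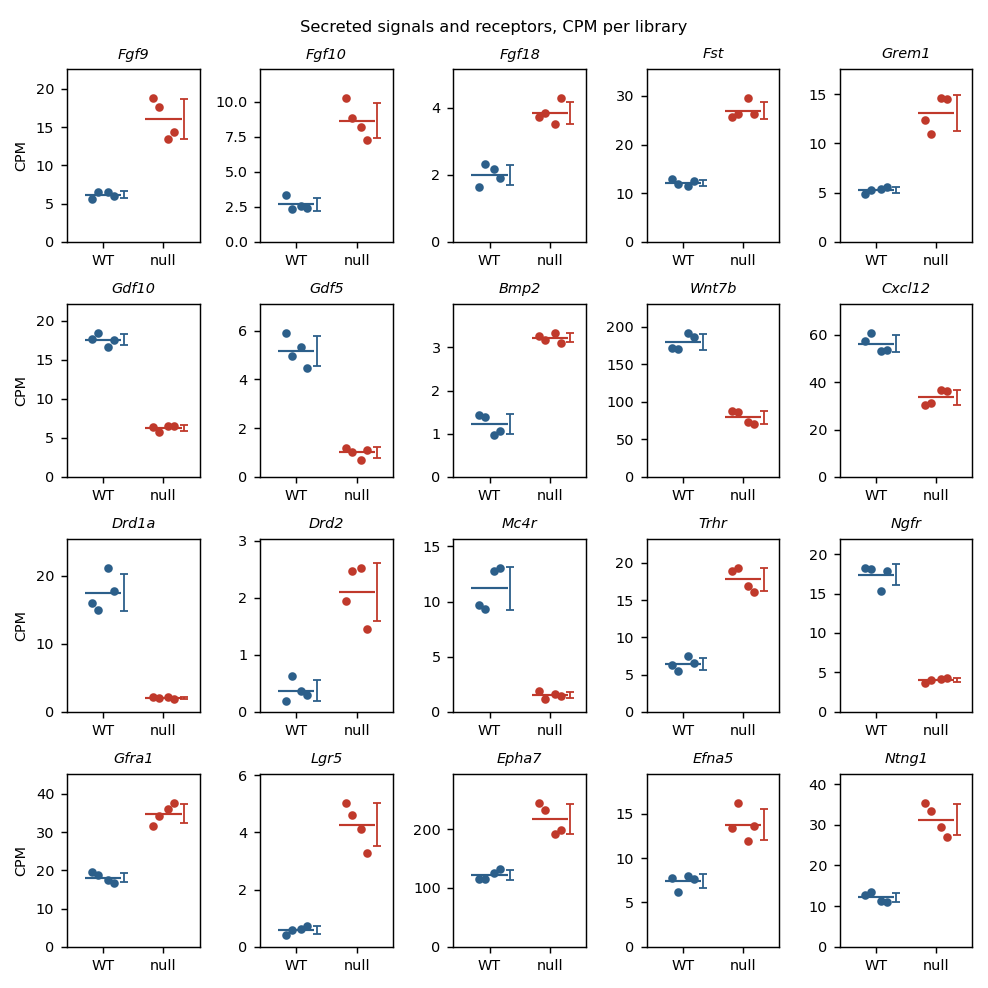
CPM (y axis, from 0) of 20 secreted signals and receptors in the 4 WT (blue) and 4 null (red) libraries; points are libraries, horizontal lines group means and the bars beside them ± 1 SD. In all 20 panels the highest library of one group lies below the lowest of the other. The 20 were picked from called genes, which makes this likely, and the groups do not overlap for 19.9% of all genes tested.

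Axon guidance receptors and cues were called more often upward. Of 24 netrins, slits, repulsive guidance molecules and their receptors, 8 were higher (33.3%, against 7.31% of all genes) and 2 lower, and 6 and 1 in both fits (median 0.080). Ntng1, netrin-G1, a membrane-bound netrin of axons, stood at 12.7, 13.6, 11.2 and 11.1 CPM in WT and 35.4, 33.4, 29.5 and 26.9 CPM in null. Unc5c, a netrin receptor that mediates repulsion, stood at 59.05, 62.8, 58.9 and 60.3 CPM in WT and 103, 97.4, 93.3 and 93.5 CPM in null, while its relative Unc5b fell by 0.42 on the log2 scale. Dcc, the netrin receptor of attraction, rose by 0.41 ± 0.058. Of 21 Eph receptors and ephrins, which signal at cell contacts, 6 were higher and 1 lower (33.3% called, against 14.2% of all genes). In both fits 3 rose. Epha7 stood at 115, 116, 126 and 133 CPM in WT and 245, 234, 192 and 199 CPM in null, with null libraries 1 and 2 above 3 and 4. Epha6 rose by 0.75 ± 0.074 and the ligand Efna5 by 0.89 ± 0.10. Semaphorins, plexins and neuropilins were called 6 higher and 7 lower of 33 (39.4% called). Sema6d rose by 0.40 ± 0.041 and the receptor Plxnd1 fell by 0.49 in both fits.

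Most adhesion families were called at several times the background share, in both directions. Of 40 cadherins and non-clustered protocadherins, 11 were higher and 10 lower (52.5% called, against 14.2%), and 5 and 3 in both fits. Cdh8 stood at 114, 106, 107 and 109 CPM in WT and 191, 197, 179 and 185 CPM in null, and Cdh9 at 11.1, 11.7, 12.9 and 11.8 CPM in WT and 6.15, 4.8, 4.46 and 5.01 CPM in null. These classical cadherins of cortical neurons thus changed in opposite directions, and Cdh4 fell by 0.50 on the log2 scale. Of 58 immunoglobulin superfamily members, 20 were higher and 10 lower (51.7% called), and 6 and 2 in both fits. Cntn6, a contactin, rose from 28.7, 30.9, 30.6 and 32.6 CPM to 63.6, 61.2, 59.5 and 60.1 CPM, whereas Cntn2, the axonal contactin TAG-1, fell from 1008, 1031, 992 and 994 CPM to 675, 693, 730.3 and 717 CPM. Lsamp, a limbic cell-surface protein, fell by 0.81. Of 43 leucine-rich repeat adhesion molecules, 12 were higher and 7 lower (44.2% called), and 7 and 2 in both fits. Flrt3, a ligand of latrophilins and of Unc5 receptors, stood at 79.2, 78.9, 81.7 and 82.7 CPM in WT and 195, 186, 139 and 139 CPM in null. The synaptic organisers Lrrtm1 (0.52 ± 0.037) and Slitrk5 (0.53 ± 0.040) rose too. The transcripts of clustered protocadherins share exons, so that reads cannot always be assigned to 1 of them. The 57 clustered protocadherins gave 1 higher and 6 lower with 8 libraries (12.3% called). None was called in both fits (18 had an unadjusted p under 0.05 and DESeq2 called 1 higher and 7 lower).

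Matrix genes were lower more often than higher. Of 122 integrins, laminins, collagens and matrix glycoproteins, 27 were lower (22.1%, against 6.86%) and 13 higher, and 5 and 5 in both fits (median -0.12). Reln, reelin, the secreted glycoprotein that directs the layering of the cortex, stood at 568, 596, 520.4 and 512 CPM in WT and 248, 252, 264 and 257 CPM in null. Ctgf, a matricellular protein and subplate gene, stood at 14.2, 13.1, 15.5 and 15.1 CPM in WT and 6.78, 6.19, 8.57 and 6.97 CPM in null. Itga6, an integrin subunit that binds laminin, rose from 48.6, 52.6, 46.3 and 46.8 CPM to 89.2, 85.96, 80.9 and 84.2 CPM, and Vwc2l, a secreted protein with von Willebrand C domains, rose by 1.43 ± 0.063. Of 67 ADAM, ADAMTS and matrix proteases and inhibitors, 12 were lower (17.9%) and 5 higher, and 5 and 3 in both fits (median -0.12). Adamts3, a protease that cleaves reelin, stood at 81.5, 81.96, 93.8 and 92.2 CPM in WT and 41.1, 41.2, 35.8 and 35.3 CPM in null.

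Heparan sulfate is a sugar chain of cell-surface proteoglycans to which FGFs, WNTs and netrins bind, and its sulfation is set by enzymes of the NDST, HS3ST and SULF families. Among 66 proteoglycans and enzymes of this kind, 15 were lower and 12 higher (40.9% called, against 14.2% of all genes). In both fits 5 were lower and 2 higher (10.6%, against 3.28% of all genes). Of the sulfotransferases that add a 3-O sulfate, Hs3st5 stood at 11.6, 11.8, 13.2 and 13.3 CPM in WT and 2.98, 2.85, 3.01 and 4.13 CPM in null, and Hs3st4 at 61.2, 64.5, 69.01 and 65.4 CPM in WT and 34.3, 37.6, 33.2 and 32.8 CPM in null. Hs3st3b1 fell by 1.66 on the log2 scale, and so did Hs3st2, named after its values were seen, by 0.86. The 4 Hs3st genes called in both fits all fell. Hs3st genes not called in both fits are not described here, so this is no result on the whole family. Extl1, a glycosyltransferase of the exostosin family, fell by 1.54, while Ndst3, an N-sulfotransferase, rose from 8.96, 9.997, 9.26 and 9.93 CPM to 17.1, 17.8, 17.03 and 16.9 CPM and Sulf2, which removes sulfate from the chain, by 0.41 ± 0.039.

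Genes of cyclic nucleotide signalling were called lower more often than higher. Of 55 cyclases, phosphodiesterases and protein kinase A genes, 15 were lower (27.3%, against 6.86% of all genes) and 4 higher. The 4 called in both fits all fell. Adcy1, a calmodulin-stimulated adenylyl cyclase, stood at 666, 682, 644 and 647 CPM in WT and 459.5, 473, 463 and 455 CPM in null. Akap7, an anchor of protein kinase A, stood at 109, 106, 112 and 111 CPM in WT and 61.3, 61.3, 57.6 and 56.7 CPM in null. The kinase's regulatory subunit Prkar2b fell by 0.55 on the log2 scale and the phosphodiesterase Pde9a, which acts on cyclic GMP, by 0.41. Of 54 calcium-binding proteins and calmodulin kinases, 14 were lower (25.9%) and 7 higher, and 5 and 3 in both fits. Nrgn, neurogranin, a calmodulin-binding protein of dendritic spines, went against that balance, from 53.9, 54.04, 40.1 and 41.4 CPM in WT to 114, 109.9, 113 and 112 CPM in null. Rcan2, a calcineurin inhibitor, fell by 0.70. Further downstream Pik3r1, a regulatory subunit of phosphoinositide 3-kinase, stood at 369, 375, 376 and 366 CPM in WT and 220, 226, 233 and 230.5 CPM in null, Prkcb, a protein kinase C, fell by 0.67, and Itpr1, a calcium release channel, rose by 0.43 ± 0.038. The G protein regulators Rgs8 (1.13 ± 0.066) and Rgs4 (0.56 ± 0.050) rose, and the G protein subunit Gng4 fell by 0.69.

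Channels other than potassium channels, and ionotropic receptors, were called upward more than downward. Of 81 sodium, calcium, HCN, chloride and TRP channels, 18 were higher (22.2%, against 7.31%) and 8 lower, and 9 and 1 in both fits, although the list median was -0.016. Trpc4, a cation channel, stood at 41.9, 40.4, 48.9 and 51.2 CPM in WT and 77.03, 75.03, 75.6 and 75.7 CPM in null, and Ryr3, a calcium release channel of the endoplasmic reticulum, at 67.7, 70.5, 70.9 and 70.2 CPM in WT and 112, 109.7, 107 and 106 CPM in null. The exception was Scn2a1, a sodium channel of the axon initial segment, at 293, 309, 298 and 297 CPM in WT and 232, 226, 225 and 213 CPM in null. Of 79 potassium channels and subunits, 15 were higher and 13 lower (14 and 15 under total-count scaling), and 3 and 4 in both fits. Within the EAG-type family Kcnh1 stood at 7.41, 8.496, 9.99 and 10.6 CPM in WT and 3.55, 3.16, 3.26 and 2.79 CPM in null, while Kcnh7 stood at 21.1, 22.9, 23.1 and 21.2 CPM in WT and 36.5, 37.2, 33.3 and 32.3 CPM in null.

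Of 47 ionotropic receptors, 14 were higher (29.8%, against 7.31% of all genes) and 8 lower, and 8 and 3 in both fits (median 0.096). Grin3a, an NMDA receptor subunit of young synapses, stood at 82.99, 89.9, 71.5 and 70.1 CPM in WT and 159.8, 159.9, 139.7 and 137 CPM in null. The GABA receptor subunits Gabrg1 (0.93 ± 0.088) and Gabra2 (0.38 ± 0.037) and the glycine receptor subunit Glra2 (0.36 ± 0.035) rose. Of 52 postsynaptic scaffolds and auxiliary subunits, 10 were higher and 9 lower (36.5% called, against 14.2% of all genes). Of the 4 called in both fits, Neto2 (-0.41 ± 0.041) and Cnih3 (-0.43 ± 0.033) fell and Iqsec3 (0.54 ± 0.043) rose. Shisa2 (-0.55 ± 0.063) fell too, but it entered the list by its gene name alone, and a place at synapses was not checked. On the presynaptic side Slc17a7, the vesicular glutamate transporter VGLUT1, fell from 81.6, 81.5, 72.7 and 71.6 CPM to 53.8, 56.5, 55.9 and 59.7 CPM, and the vesicle proteins Sv2b (-0.58 ± 0.045) and Syt7 (-0.32 ± 0.037) fell. Doc2b, a calcium sensor of release, and Stxbp6, a SNARE-binding protein, rose by 0.76 ± 0.045 and 0.97 ± 0.072.

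Neurofilaments are the intermediate filaments of large axons. Nefl, the light subunit, stood at 102, 105, 92.4 and 92.4 CPM in WT and 308, 307, 260.5 and 253 CPM in null, and Nefm, the medium subunit, at 38.8, 36.4, 43.7 and 44.4 CPM in WT and 120.4, 114, 89.5 and 97.2 CPM in null. In both genes null libraries 1 and 2 were above null libraries 3 and 4, and all 4 were above WT. Of 21 intermediate filament genes 5 were higher and 1 lower with 8 libraries (28.6% called, against 14.2% of all genes). Nefl and Nefm were the members called in both fits (9.52%, against 3.28%), and the heavy subunit gene Nefh was not called. Of 80 tubulins, microtubule proteins and axon growth proteins 7 were higher and 4 lower (13.8% called, against 14.2%), and of 87 actin-binding and membrane-skeleton proteins 10 and 6 (18.4%; 6 and 7 under total-count scaling). Of 100 kinesins, dyneins and myosins 13 were higher and 8 lower (21.0% called, 3 of them in both fits), or 9 and 9 under total-count scaling. Kif26a, a kinesin, stood at 156, 158, 157 and 161 CPM in WT and 215, 223, 217 and 209.8 CPM in null, its paralogue Kif26b fell by 0.39 on the log2 scale, and Dync1i1, a dynein intermediate chain, by 0.28.

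Transcription regulators beyond the largest falls formed sets of moderate size. Of 33 nuclear receptors, 7 were lower and 4 higher (33.3% called, against 14.2% of all genes). In both fits 3 were lower and 1 higher (median -0.12). Rorb, a marker of layer 4 neurons, stood at 50.8, 52.4, 54.9 and 58.8 CPM in WT and 31.1, 32.96, 30.6 and 28.2 CPM in null, Nr4a2, a subplate factor, fell by 0.68 on the log2 scale, and Nr2f1, which patterns the cortex into areas, by 0.49. Of 34 basic helix-loop-helix factors, 4 were higher and 5 lower (26.5% called). Npas2, a circadian factor, fell from 7.05, 7.29, 7.84 and 8.77 CPM to 2.87, 3.58, 2.87 and 2.58 CPM, and the differentiation factor Neurod1 rose from 45.4, 46.8, 42.03 and 46.5 CPM to 61.4, 64.4, 69.5 and 71.2 CPM. Zfp521, a zinc finger factor, stood at 24.4, 25.2, 26.6 and 25.9 CPM in WT and 57.95, 61.2, 55.9 and 55.4 CPM in null, and Zfp804a at 23.7, 25.2, 26.4 and 25.8 CPM in WT and 48.7, 44.97, 39.95 and 38.9 CPM in null. They stood out from their family, since of 356 ZFP, ZSCAN and ZKSCAN zinc fingers 9 were higher and 8 lower (4.78% called). The forkhead paralogues Foxp1 and Foxp2 changed in opposite directions, at 0.36 ± 0.038 and -0.54 ± 0.068, and the homeobox factors Meis2 (-0.46 ± 0.040) and Zeb2 (-0.39 ± 0.028) fell. Of 107 chromatin regulators, 5 were higher and 10 lower (14.02% called), and Hdac5, a histone deacetylase, was the 1 called in both fits, at -0.43 ± 0.034. Of 9 T-box factors tested, Tbr1 and Tbx15 (-0.59 ± 0.17, with 8 libraries only) were called, both lower. Of 17 ETS factors, 3 were higher and 2 lower (29.4% called, or 3 and 4 under total-count scaling). Etv1 rose in both fits by 0.31 ± 0.036.

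Several lists of genes for general cell functions were called below or near the background share of 14.2%. Of 81 cytosolic ribosomal protein genes, edgeR called 0 higher and 2 lower (16 had an unadjusted p under 0.05, and DESeq2 called 0 and 9). Of 90 oxidative phosphorylation genes, it called 3 higher and 0 lower (14 had an unadjusted p under 0.05, and DESeq2 called 6 and 2). Of 47 proteasome genes 1 was higher and 1 lower. No member of these 3 lists was called in both fits. RNA-binding and splicing proteins were called near the background, 16 of 105 (15.2%), with Nova1, a neuronal splicing regulator, rising from 20.3, 21.7, 22.1 and 21.4 CPM to 39.9, 38.3, 37.6 and 38.1 CPM and Rbfox1, another, falling from 206, 207, 222 and 222 CPM to 140, 144, 168 and 166 CPM. Cwc22, a spliceosome factor, kept a narrow range within each group, falling from 103, 106, 108 and 106 CPM in WT to 42.7, 42.7, 40.7 and 40.9 CPM in null. Cwc22 is named here after its values were seen, and its gene has further copies in the mouse genome among which reads may be split.

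Among the general functions, histone, imprinted and noncoding host genes were called above the background share with 8 libraries. Imprinted genes are expressed mainly from the copy of a single parent. Of 63 genes listed as imprinted, 13 were higher (20.6%, against 7.31%) and 4 lower (median 0.037), or 9 and 4 under total-count scaling. In both fits 3 were higher and 0 lower (4.76%, against 3.28% of all genes). Mest, an enzyme of the alpha/beta hydrolase fold, stood at 98.02, 93.5, 99.8 and 95.2 CPM in WT and 118, 121, 118 and 118 CPM in null. Cobl, which encodes an actin nucleator, rose by 0.62 ± 0.078 and Dhcr7, which encodes a sterol reductase, by 0.27 ± 0.039. Of 43 host and noncoding transcripts, 3 were higher and 6 lower (20.9% called). Only 1 was called in both fits (2.33%, against 3.28% of all genes), Snhg11, which fell by 1.04 on the log2 scale. Of 22 glycolysis genes, edgeR called 4 (18.2%), none of them in both fits (9 had an unadjusted p under 0.05).

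Of 58 replication-dependent histone genes tested, 13 were lower and 8 higher (36.2% called), and 7 and 1 in both fits. Hist1h4m stood at 5.797, 5.73, 6.805 and 7.67 CPM in WT and 0.718, 0.796, 0.955 and 0.978 CPM in null, and Hist1h3f at 71.5, 63.01, 62.4 and 63.1 CPM in WT and 29.8, 34.2, 39.4 and 38.6 CPM in null. Histone genes have near-identical copies, so reads may be split between them or dropped, and single members are uncertain. Summed over 67 genes the histone level was 2865 to 2962 CPM in WT and 2489 to 2935 CPM in null, where null libraries 3 and 4 overlapped the WT range and 1 and 2 did not.

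**Figure D4:**
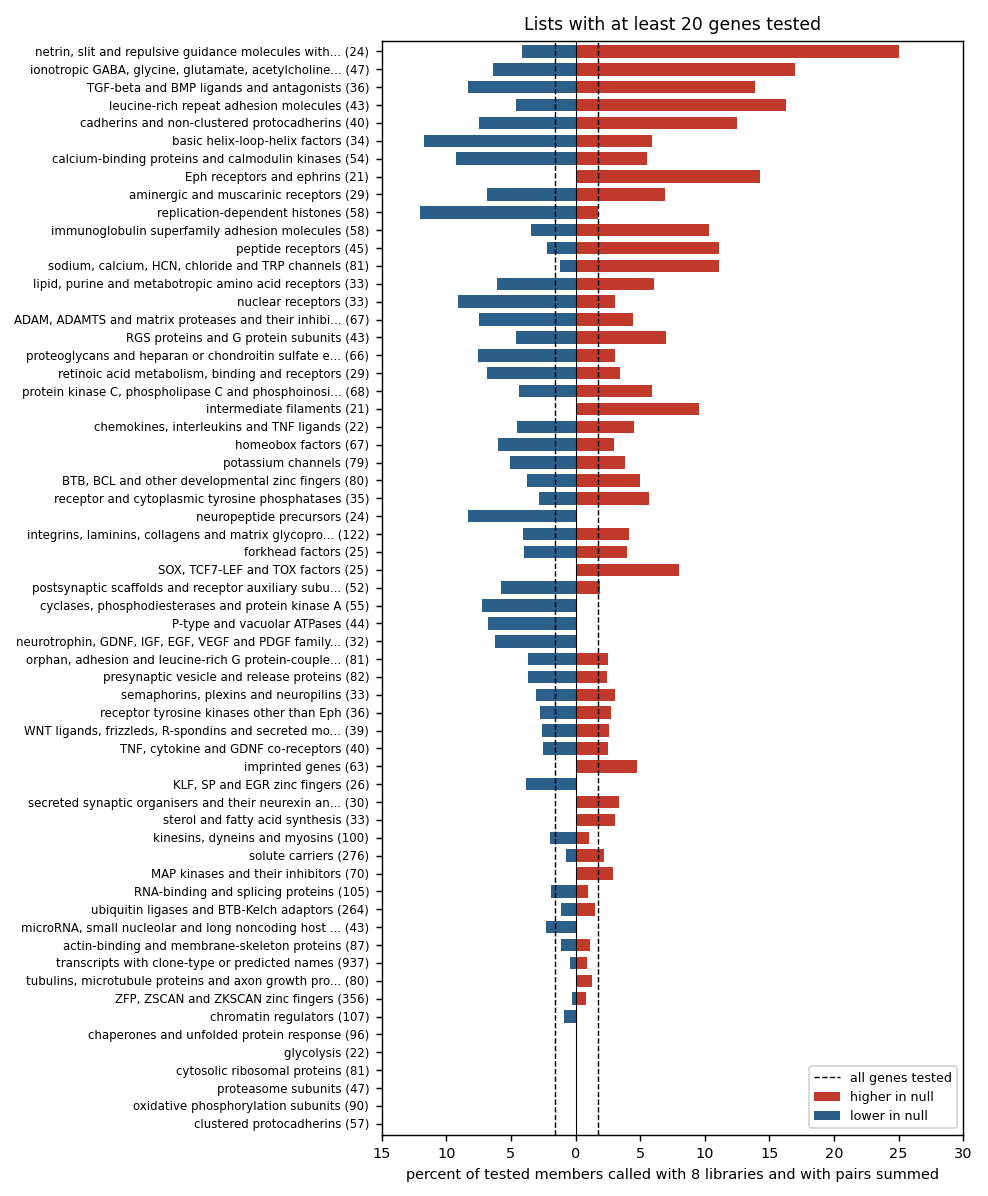
Percent of tested members (x axis) that rose (red, right) or fell (blue, left) in both fits, for each list with at least 20 genes tested (number in parentheses), except 1 that is not reported. Dashed lines mark 1.71% and 1.57%, the shares over all genes; guidance molecules, ionotropic receptors, cadherins and leucine-rich repeat adhesion molecules extend past the lines, and clustered protocadherins and ribosomal, oxidative phosphorylation and proteasome genes are among the lists with no bar.

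Of the 478 genes called in both fits, 203 belonged to none of the 76 lists, 97 higher and 106 lower. Genes in a list were called in both fits at 5.43% of those tested and genes in none at 2.13%. Signalling proteins were among the unlisted fallers, and those in the rest of this paragraph were picked after their values were seen. Ptk2b, a calcium-activated tyrosine kinase, stood at 45.9, 45.6, 46.01 and 42.5 CPM in WT and 18.8, 20.1, 21.8 and 20.8 CPM in null. Kitl, the ligand of the receptor KIT, stood at 149.7, 159, 172 and 182 CPM in WT and 118, 112, 93.4 and 93.8 CPM in null. Ramp1 (-1.0 ± 0.19) and Ramp3 (-1.0 ± 0.13), which set the ligand choice of the calcitonin-type receptors, both fell. Mef2c, an activity-dependent transcription factor, fell by 0.45 on the log2 scale, Nfia, a nuclear factor I gene, by 0.33 and Auts2, linked to autism, by 0.33. Among the rises, the sorting receptors Sorcs1 and Sorcs3 increased by 0.98 ± 0.064 and 0.73 ± 0.064, and Dio2, the deiodinase that activates thyroid hormone, stood at 66.4, 65.5, 63.9 and 66.4 CPM in WT and 104, 101, 102 and 100.5 CPM in null. Small families split: Brinp1 rose by 0.67 ± 0.041 while Brinp2 (-0.37 ± 0.039) and Brinp3 (-0.47 ± 0.069) fell, and Thsd7a rose by 0.72 ± 0.077 while Thsd7b fell by 0.71.

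Genes next to Tbr1 on chromosome 2 were called often. Of the 30 tested genes nearest to it, 15 on each side in the gene order of RefSeq GRCm38.p6, 11 were higher and 2 lower (43.3%, against 14.2% of all genes), and 8 and 1 in both fits. The glucagon gene Gcg stood at 0.314, 0.2702, 0.2195 and 0.145 CPM in WT and 1.82, 1.92, 3.04 and 2.39 CPM in null, and Ifih1, an RNA sensor of the innate immune system, at 2.11, 1.801, 1.19 and 1.46 CPM in WT and 7.5, 5.53, 5.17 and 6.51 CPM in null. The protease gene Fap rose by 1.40 ± 0.17 and the bicarbonate transporter gene Slc4a10, which follows Tbr1 in that order, by 0.49 ± 0.053. Kcnh7 and Scn2a1, described above, lie in the same stretch.

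Markers of other cell types were read in the same libraries. Of 15 markers of Cajal-Retzius cells, the reelin-secreting neurons of the marginal zone, 10 were lower and 1 higher. That is 73.3% called, against 14.2% of all genes, and 7 fell in both fits (median -0.89). Their summed level was 769 to 871 CPM in WT and 423 to 474 CPM in null libraries. Trp73, a p53-family factor of these cells, stood at 15.7, 16.5, 13.2 and 13.02 CPM in WT and 3.68, 3.27, 5.02 and 3.53 CPM in null, and Lhx5, a LIM homeobox factor, at 5.71, 5.85, 4.32 and 4.62 CPM in WT and 1.63, 1.64, 1.96 and 1.86 CPM in null. Ndnf, a secreted factor of the marginal zone, fell from 50.4, 48.5, 41.8 and 42.7 CPM to 17.3, 16.6, 15.4 and 13.96 CPM, Nhlh2 fell by 1.23 on the log2 scale and Ebf2 by 2.74. Ebf3 was called higher with 8 libraries only, at 0.42 ± 0.12. Reln gave most of the sum of this list and is also counted among the matrix genes. The list moved with the matrix genes that fell, and its part in them was not tested.

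Astrocyte markers summed to 1156 to 1333 CPM in WT and 1344 to 1433 CPM in null, with 6 of 15 higher and 2 lower (53.3% called, against 14.2%) and 1 in both fits (Acsbg1, at 0.52 ± 0.053). With 8 libraries only, the glutamate transporter genes Slc1a3 (0.34 ± 0.051) and Slc1a2 (0.39 ± 0.062), and Aldh1l1, Aldoc and Sox9, were called higher. The connexin genes Gja1 and Gjb6 were called lower with 8 libraries only, by 0.38 and 0.63. Gfap and Aqp4 were among the 7 not called. Progenitor markers summed to 996 to 1013 CPM in WT and 1075 to 1140 CPM in null, with 7 of 18 higher (38.9%), 1 of them in both fits. Neurod1, which rose, belongs to that list and is part of its sum. Interneuron markers summed to 560 to 593 CPM in WT and 532 to 542 CPM in null, with 1 of 17 higher and 6 lower (41.2% called). In both fits 1 was lower and 0 higher. Markers of the oligodendrocyte lineage gave 315 to 335 CPM in WT and 295 to 308 CPM in null. Of 12 tested, 2 were higher and 6 lower (66.7% called), and 1 and 2 in both fits (25%, against 3.28% of all genes). Opalin was at 0 in all 8 libraries. Microglial markers gave 164 to 174 CPM in null and 167 to 177 CPM in WT, with 1 of 14 lower (7.14% called). Markers of vessels, meninges and blood gave 517 to 625 CPM in null and 610.2 to 669 CPM in WT. Of the latter, 2 of 15 were higher and 3 lower (33.3% called). Both sums overlapped between the groups, and no member of either list was called in both fits. The part of these differences in the results above was not tested.

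**Figure D5:**
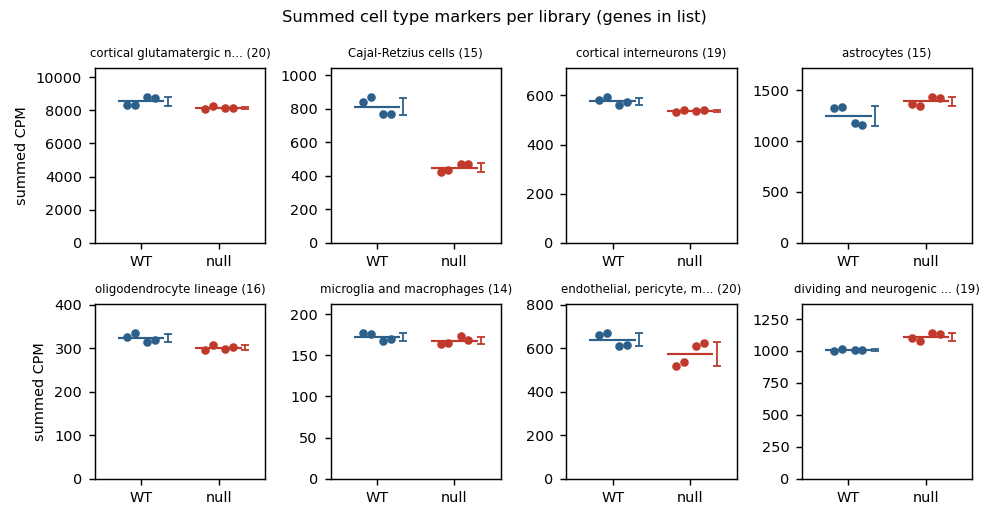
Summed CPM (y axis, from 0) of 8 lists of cell type markers in the 4 WT (blue) and 4 null (red) libraries; points are libraries, lines group means and bars ± 1 SD, and the number of genes is in each title. The Cajal-Retzius sum is 769 to 871 CPM in WT and 423 to 474 CPM in null, while the microglial sums overlap.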

How the data were processed

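RNA sequencing counts of 4 Tbr1 null and 4 WT layer 6 samples were used, of 18 samples in the series. Per the labels' protocols, total RNA libraries were made with a stranded, ribosome-depleting kit and 12 PCR cycles. The table deposited by the authors holds whole-read counts per gene, and the submitters' processing notes name for these libraries the aligner STAR (2.5.2b), bedtools, HTSeq and, as build, mm9. How HTSeq treated strand and reads matching several genes, and with which annotation, was not given in the sources used here. Overlapping, antisense and near-identical genes are therefore uncertain. All 24015 genes entered the library totals, 0 rows named no gene, and 0 columns were unmatched to a sample. A table of normalised values and the peak lists were not used here.

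The counts went into edgeR (4.0.16, run in R 4.3.3; TMM, filterByExpr by group, quasi-likelihood F-test, Benjamini-Hochberg over 14588 genes, called at an adjusted p under 0.05), first with 8 libraries and then with libraries 1 and 2, and 3 and 4, of each group summed. CPM are on TMM-scaled totals. Library totals of 32982957 to 54899002 set the precision; PCR reads without molecular identifiers are not independent molecules. Alternatives were limma 3.58.1, DESeq2 1.42.0, other scalings, filters, blocks and subsets of libraries, of which 3 subsets (only WT 1 and 2, only null 1 and 2, only null 3 and 4) were chosen after seeing the data.

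The comparison, the 76 gene lists and the rule for named genes were chosen with earlier results of these data known. The rule took Tbr1, the 30 largest falls and rises among genes called in both fits with at least 1 CPM in the higher group, and from each list up to 4 members called in both fits with the smallest adjusted p, or 2 called members where there was none. It gave 232 genes, part of which are printed. Some lists are given only as shares in a figure, and the result of 1 list is not reported here. Numbers 1 to 4 of the libraries come from the sample titles. Same-numbered null and WT libraries did not deviate together (correlations of -0.13 to -0.065 over 4 numbers), so no replicate block was used.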

Additional observations from a re-analysis of the deposited data

Results flagged for a closer look

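In 23 of 464 groups of 4 libraries (232 named genes, null and WT), 1 library stood apart from the other 3 by Dixon's ratio. That is 4.96%, and chance flags about 1 in 20 groups. Values are CPM, with the range of the other 3 libraries of the group.

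Among null libraries, number 3 was high for Ly6g6e (1.27, others 0.642 to 0.739), Crabp1 (5.66, others 4.78 to 4.89), Fst (29.5, others 25.7 to 26.2) and Snhg11 (3.85, others 2.86 to 2.94). Number 4 was high for Hs3st5 (4.13, others 2.85 to 3.01), 2010015L04Rik (0.740, others 0.310 to 0.359) and Grm4 (5.73, others 5.45 to 5.46), and low for Grp (6.16, others 6.52 to 6.57). Number 1 was low for Hdac5 (103.7, others 111.8 to 112.9) and Adamts20 (12.5, others 13.5 to 13.6), and high for Inpp5k (57.7, others 55.8 to 56.1). Number 2 was high for Mest (120.9, others 118.0 to 118.3).

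Among WT libraries, number 3 was low for Ngfr (15.4, others 17.8 to 18.2) and high for Ermn (2.94, others 2.64 to 2.69) and Kcnd2 (67.3, others 63.4 to 63.8). Number 2 was high for Etv1 (38.2, others 36.8 to 37.0), Slitrk5 (95.3, others 86.7 to 87.6), Psmg3 (16.9, others 15.7 to 15.8) and Hspa12a (223.7, others 216.4 to 217.2), and low for Efna5 (6.21, others 7.67 to 7.97). Number 1 was low for Atp8a1 (289.5, others 313.5 to 316.9) and Psmg4 (10.4, others 12.2 to 12.5), and high for Hist1h3f (71.5, others 62.4 to 63.1). In each of these genes the null and WT ranges did not overlap, the library that stood apart included. Their choice as called genes makes this likely.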

How the results depend on the processing

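Of 2068 calls, 1067 higher and 1001 lower, 3 settings moved the count by more than 1.5 times: pairs of libraries summed (479 calls, 249 higher, 230 lower), limma with a random block for each pair (1277, 688 and 589, with an estimated correlation of 0.41 within pairs) and a test against a 1.5-fold change (147, 76 and 71). The cause was not tested for the second; summing leaves 2 against 2 samples, and the third asks for a larger change. A replicate block on the library numbers, which do not pair the libraries, gave 1526 calls, 812 higher and 714 lower. Leaving out 1 library gave 1632 to 1838 calls, 872 to 958 higher and 753 to 880 lower. DESeq2 called 2422 genes, and all 3 RNA groups in 1 fit gave 2659. No named gene changed direction under any setting. Except in the test against a 1.5-fold change, the 213 named genes called in both fits were called in every other setting that gave them a value. The 1.5-fold test called 102 of all 232 named genes. All settings reuse the libraries by which the genes were chosen, so this is no independent check. Low-count genes such as Chrnb4, Prlr and Ebf2 rest on few reads, so their fold changes are imprecise.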
